A study of Drosophila melanogaster with 26 samples.

Results

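Primordial germ cells (PGCs) sorted from smaug-mutant Drosophila melanogaster embryos at 1-3h were set against somatic cells sorted from wild-type embryos of the same age, which asks which germ line to soma differences are present without Smaug. The samples were chosen by their titles and are 7 of the 26 in the series, 3 of mutant PGCs and 4 of wild-type soma. A further 4 samples of wild-type PGCs at 1-3h served to see where the mutant differed from the wild type. The series has 7 groups, namely PGCs of both genotypes at 3 ages and the single group of somatic cells.

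PGCs form at the posterior pole of the embryo and take up the germ plasm, a cytoplasm rich in maternal RNAs and proteins that direct germ cell fate. They are transcriptionally quiet when they form, while the surrounding somatic nuclei switch on the zygotic patterning genes. Smaug is an RNA-binding protein that represses translation of maternal mRNAs and recruits the CCR4/POP2/NOT deadenylase to them, and it is known for its part in the clearance of maternal mRNAs.

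Wild-type embryos came from a stock with the genotype w1118, VASA-GFP/CyO; PrDr/TM3,Sb. Mutant embryos were laid by mothers that carried the smg1 allele over the deficiency Df(3L)Scf-R6. These mothers came from a cross in which the smg1 parents (VASA-GFP/CyO; smg1/TM3,Sb) and the deficiency parents (Df(3L)Scf-R6/TM3,Sb) carried that chromosome over a balancer, so that the loss of Smaug was maternal. Every group carried VASA-GFP, which marks the PGCs, and dissociated cells were sorted into GFP-positive (PGC) and GFP-negative (somatic) cells. There was no group of mutant somatic cells. The labels put both PGC groups at 1-3h in the Cy5 channel and the soma in the Cy3 channel, whereas the methods describe Cy3 for wild type and Cy5 for mutant PGCs. In the main comparison the cell type, the genotype and the dye changed together and cannot be told apart. Fewer cells of a type and less RNA per cell also cannot be told apart in sorted bulk samples.

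Signals are array intensities on a log2 scale, and the number of arrays limits their precision. Replicates of a group correlated with r from 0.969 to 0.996 over 16623 transcripts. The median SD of a transcript was 0.267 in mutant PGCs, 0.218 in soma and 0.315 in wild-type PGCs. As a floor, the second highest of 16 array controls was taken on each array, which averaged 5.16 in mutant PGCs and 5.28 in soma (called the control level). The labels were checked with marker genes that had a name. Names came from lists of the study, which include transcripts it found enriched in wild-type PGCs or in the same somatic samples. The check was thus not independent of that contrast. All 8 germ line markers with a named transcript were higher in mutant PGCs, where their mean was 14.55 to 14.65 by sample, against 10.61 to 11.13 in soma. The 4 named blastoderm markers (slam, sna, zen and nullo) were all lower, with a mean of 8.99 to 9.78 in mutant PGCs, 10.5 to 10.9 in wild-type PGCs and 11.6 to 11.7 in soma. Without a name were 1 listed germ line marker and 9 listed blastoderm markers. RNA of GFP did not follow the sort, since its probe read 10.8, 10.9 and 11.3 in mutant PGCs, 12.5 to 13.0 in soma and 12.4 to 13.0 in wild-type PGCs.

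The targeted gene was low in the mutant. The main smg transcript read 11.73, 11.64 and 11.19 in mutant PGCs, 14.38, 14.53, 14.37 and 14.01 in soma, and 13.81, 13.25, 13.98 and 13.78 in wild-type PGCs. Mutant PGCs lay below both other groups in every sample, 6.96-fold below soma (adjusted p = 4.1e-06, limma with Benjamini-Hochberg adjustment over all transcripts, as for every adjusted p given here) and 4.54-fold below wild-type PGCs (adjusted p = 0.0013). A second smg transcript was uneven in soma, at 13.78, 8.94, 13.62 and 13.28, and its difference of -1.98 on the log2 scale did not pass the test (adjusted p = 0.17).

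A transcript was called where the adjusted p was under 0.05 and the difference over 2-fold. Mutant PGCs were called higher than soma for 3662 transcripts (22.0%) and lower for 3341 (20.1%). Replicates of the groups did not overlap for 3592 of the higher and 3250 of the lower calls. The rule for a call favours such separation, and its share over all transcripts was not counted. The lower calls reached further, with 224 beyond 64-fold against 6 of the higher calls. The balance depended on scaling: centring each array on its median raised the differences by 0.32 on the log2 scale and gave 4988 higher and 2706 lower calls, moving the higher share of calls from 52.3% to 64.8%. Gene names were attached to 5423 transcripts through lists that the study made from the wild-type samples, so that 50.5% of the higher calls but 24.6% of the lower calls had a name. Counting 1 transcript for each of 4752 named genes, 34.3% were called higher and 14.5% lower, which is the background for the gene lists that follow. The naming lists include transcripts that the study found enriched in wild-type PGCs or in soma, so naming was not independent of that contrast. For calls between genotypes the share among named genes was not counted, and all transcripts stand as the background.

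The 12 named genes furthest above soma, chosen among called genes whose replicates did not overlap, held several of the best known germ line genes. Taf12L, a paralogue of the TFIID subunit Taf12, read 13.75, 13.48 and 14.34 in mutant PGCs and 6.61, 7.23, 6.29 and 6.16 in soma. This was the widest gap upwards, 7.28 on the log2 scale or 156-fold (SE 0.30, adjusted p = 2.6e-07). The translational repressor nos read 15.36, 15.05 and 15.25 in mutant PGCs and 8.73, 9.30, 8.67 and 8.57 in soma. It was 84.5-fold higher (SE 0.21 on the log2 scale, adjusted p = 8.3e-08), with no overlap of the groups. The piRNA pathway gene shu read 12.15, 12.24 and 12.15 against 5.94, 6.47, 5.59 and 5.56, a difference of 78.3-fold.

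The germ plasm organiser osk read 14.33, 14.51 and 14.24 in mutant PGCs and 9.41, 9.95, 9.03 and 8.25 in soma, 36.7-fold apart (adjusted p = 3.5e-06). The gene stil, needed in the female germ line, read 10.58, 10.90 and 10.65 against 5.57, 5.58, 5.42 and 5.36. Both were higher in every mutant sample. Hsp22, a small heat shock protein of mitochondria, stayed at the control level in soma, with 4.62, 4.64, 4.11 and 4.59, and read 10.10, 9.88 and 10.27 in mutant PGCs. Against the control level it was at least 27.9-fold higher. CG17658 was likewise at the control level in soma and was at least 48.9-fold higher in mutant PGCs. The remaining genes were Vps11, a subunit of the complexes that tether late endosomes and lysosomes, and CG32243, CG17698, CG12112 and CG31262, with differences from 5.16 to 6.33 on the log2 scale. All 12 were also called higher in wild-type PGCs than in soma. Mutant PGCs were called above wild-type PGCs for 7 of the 12 and below for none, beside 7.46% and 6.0% of all transcripts. Since the 12 were chosen for high values in the same mutant samples, which favours this direction, the count is a description.

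**Figure D1:**
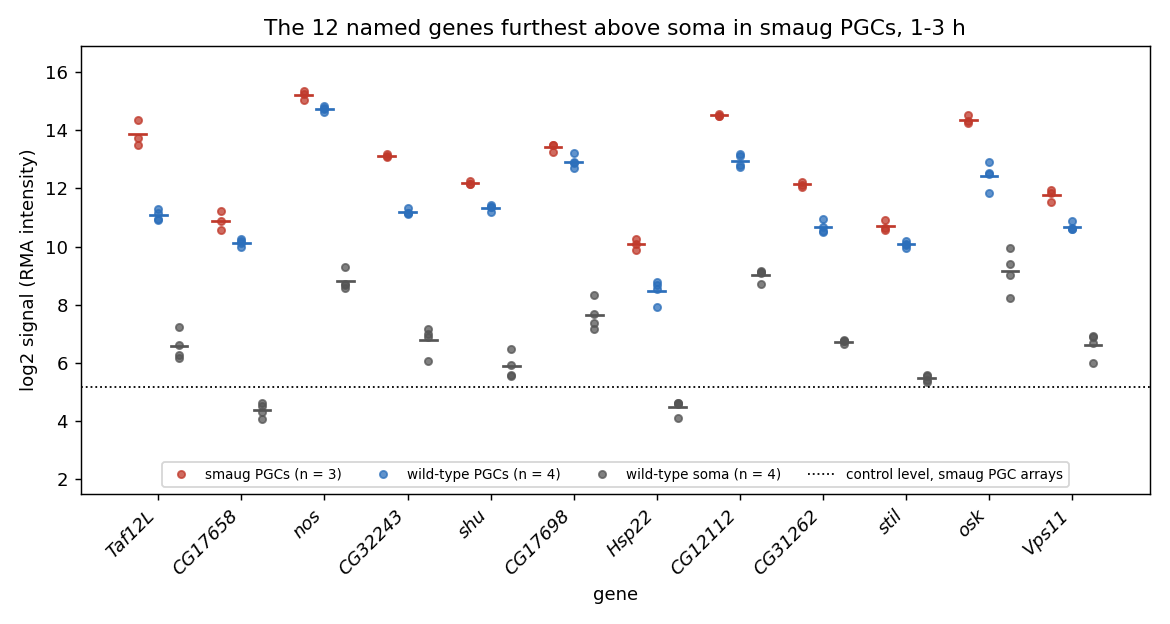
Log2 signal (y axis) of the 12 named genes furthest above soma (x axis), with 1 point per sample (3 mutant PGC, 4 wild-type PGC and 4 wild-type soma samples), short bars for group means and a dotted line for the control level of the mutant PGC arrays. Every PGC point lies above every somatic point of its gene, and for Taf12L the mutant samples at 13.48 to 14.34 also stand clear of the wild-type PGCs at 10.92 to 11.31.

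Germ plasm and germ cell determinants were higher as a group. Of 22 with a named transcript, 20 were called higher than soma and none lower. Their median difference was 2.80 on the log2 scale, beside 0.44 for named genes and 0.18 for all transcripts. After nos and osk came orb (4.52), which controls translation in the oocyte, and pgc (4.03), which holds back transcription in pole cells. The signal of pgc was 15.99, 15.87 and 15.92 in mutant PGCs against 12.23, 12.28, 11.46 and 11.59 in soma. The helicase gene vas read 13.59, 13.68 and 13.64 against 11.73, 11.85, 11.61 and 11.09, a 4.19-fold difference. Whether the vas probes also read RNA of the VASA-GFP transgene is not given in the sources used here. The members not called were egl (0.96) and stau (-0.65), which act in RNA transport. In wild-type PGCs 20 of the 22 were called higher than soma, 19 of them shared with the mutant. The genotypes were called different for osk (1.92 higher in mutant than wild-type PGCs, adjusted p = 0.0029) and for dhd, a maternal thioredoxin (1.69, adjusted p = 0.012). These 2 of 22 are close to the 7.46% of all transcripts called higher in that comparison.

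The piRNA pathway silences transposons through small RNAs bound by Piwi-clade Argonaute proteins. Its genes were called higher in 19 of 20 cases with a median of 3.02, and the exception was mino (0.49). The helicase gene armi read 12.88, 12.61 and 12.69 in mutant PGCs and 8.21, 7.98, 7.82 and 7.96 in soma, 26.6-fold apart. The Argonaute gene piwi read 14.50, 14.90 and 14.66 against 10.81, 10.85, 10.71 and 10.44. Between mutant and wild-type PGCs the difference in armi was 0.18 on the log2 scale with a 95% interval from -0.20 to 0.56. Only arx, a partner of Piwi in transcriptional silencing, was called different between the genotypes in this list (1.62 higher in the mutant). Of all transcripts, 7.46% were called higher there.

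Genes that control germ line stem cells were split. Of 13, 8 were called higher and 2 lower, with a median of 1.83. The gap junction gene zpg, which the germ line needs to differentiate, read 15.61, 15.56 and 15.44 in mutant PGCs and 11.96, 11.53, 11.34 and 11.18 in soma (16.4-fold). The lower members were brat (-1.91), a translational repressor, and Sxl (-2.20), the switch gene of sex determination. Both were also called lower in wild-type PGCs. None of the 13 was called different between the genotypes, beside 7.46% of all transcripts called higher and 6.0% called lower there. Of 29 meiosis and DNA repair genes, 18 were called higher and 1 lower. They were led by c(2)M (4.20), a component of the synaptonemal complex, and Ercc1 (4.04), a subunit of the excision repair nuclease. The lower member was the polymerase gene mus308 (-1.29, and -0.97 after median centring, where it was no longer called), and nod, a kinesin-like protein of meiosis, was at -0.42.

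Enzymes of carbon metabolism were mostly higher. In glycolysis 9 of 10 genes were called higher and 1 lower, with a median of 2.69. Gapdh1 read 12.19, 12.79 and 12.71 in mutant PGCs and 8.67, 8.57, 8.63 and 8.99 in soma (14.4-fold), and PyK, pyruvate kinase, was 12.7-fold higher. The exception was the aldolase gene Ald (-1.13, and -0.81 after median centring, where it was no longer called), whose second transcript lay the other way at 0.58 and was not called. The genotypes were called different for 4 of the 10, with Pgi (1.62) and Gapdh2 (1.60) higher in the mutant and Ald (-1.02) and Pfk (-1.0) lower. Of all transcripts, 7.46% were called higher and 6.0% lower in that comparison. The second Ald transcript was at 0.43 there, not called. For the citrate cycle and pyruvate metabolism 11 of 17 were called higher and 2 lower. Men-b, a malic enzyme, was 19.6-fold higher and Idh, isocitrate dehydrogenase, 17.5-fold higher. The lower members were the first enzymes of the cycle, citrate synthase (kdn, -1.64) and aconitase (Acon, -2.86). Acon read 10.91, 11.09 and 10.67 in mutant PGCs, 13.54 to 13.85 in soma and 12.16 to 12.32 in wild-type PGCs, so that the 3 groups did not overlap.

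Ribosomal protein genes stayed near the soma level. Of 82 cytoplasmic ribosomal protein genes, 2 were called higher (RpL39 and RpLP2) and none lower, with a median of 0.22. RpL39 read 14.69, 15.15 and 15.09 in mutant PGCs and 14.14, 14.09, 13.74 and 13.05 in soma. Its difference of 1.22 on the log2 scale fell to 0.99, under 2-fold, without soma replicate 4. RpLP2 was 2.19-fold higher, and the lowest members were RpL15 (-0.57) and RpL22 (-0.71), neither called. Against wild-type PGCs, 15 of the 82 were called higher and none lower in the mutant, beside 7.46% of all transcripts called higher in that comparison. RpL38 was 2.05 higher on the log2 scale there. Of 47 mitochondrial ribosomal protein genes 15 were called higher than soma, a share close to the background, led by mRpS5 (2.14) and mRpL50 (2.12), and none lower. The lowest were mRpS6 (-0.91) and mRpS31 (-0.72).

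The 12 named genes furthest below soma were far below it. The kinase gene KP78a, a relative of Par-1, read 4.32, 4.54 and 4.39 in mutant PGCs, 14.88, 15.05, 15.04 and 15.09 in soma, and 9.29, 10.20, 10.72 and 9.41 in wild-type PGCs. The mutant samples were at the control level, so KP78a was at least 926-fold below soma (adjusted p = 6.2e-09), and the wild-type PGCs lay between the other groups. Its neighbouring paralogue KP78b was at least 707-fold below soma. Whether the probes tell these paralogues apart is not given in the sources used here.

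Several of the others act at the cell surface. Cg25C, a collagen IV chain of basement membranes, read 6.07, 6.20 and 6.05 in mutant PGCs and 15.11, 15.21, 15.17 and 15.35 in soma, 550-fold apart. The receptor gene lea was at least 572-fold lower and the leucine-rich repeat gene trn at least 419-fold lower. The cadherin gene Cad74A and the filamin-like gene jbug were at least 271-fold and at least 305-fold lower, and the scavenger receptor gene Sr-CII was 9.22 lower on the log2 scale. The gap junction gene inx3 read 6.29, 5.34 and 6.13 against 14.69 to 14.92. The segmentation gene en read 4.74, 5.15 and 5.95 in mutant PGCs, 13.96, 14.04, 13.75 and 14.40 in soma, and 8.56, 8.22, 8.12 and 9.14 in wild-type PGCs. CG10035 (-9.95) and Dtg (-9.07), a target of Dpp signalling, completed the set. Samples that did not overlap soma were a condition for choosing the 12. Of the 12, 6 were at the control level in mutant PGCs.

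All 12 were also called lower in wild-type PGCs than in soma, and 10 of the 12 were called lower in mutant than in wild-type PGCs, beside 6.0% of all transcripts. The 12 were chosen for low values in the same mutant samples, which favours this direction, so that this count too is a description. Cg25C was the least certain of the 10: its difference between genotypes of -1.34 on the log2 scale (adjusted p = 0.033) was -1.0 without wild-type PGC replicate 3, where it was under 2-fold, and its adjusted p was 0.08 to 0.098 without any 1 of the mutant samples and 0.054 without wild-type PGC replicate 2. Lists of somatic markers held 1 to 5 named genes each, and more members without a name than with one. Mutant PGCs were called below wild-type PGCs for 3 of 4 blastoderm, 3 of 5 muscle, 1 of 4 hemocyte and fat body and 0 of 3 epidermis and trachea markers. The same held for 1 of 1 yolk and midgut, 0 of 2 follicle cell and 0 of 1 neural markers. These counts stand beside 6.0% of all transcripts, and none of these markers was called above. Against soma, Tm1 (1.17) among the muscle, crq (1.15) among the hemocyte and 1 of the 2 follicle cell markers were called higher. The mean of 5 muscle markers was 8.46 to 8.63 in mutant PGCs, 9.73 to 10.2 in wild-type PGCs and 12.35 to 12.43 in soma, with 2 of the 5 at the control level in mutant PGCs. The mean of 4 hemocyte and fat body markers was 9.02 to 9.07, 9.33 to 9.66 and 13.3 to 13.4 in these groups. The part of admixed somatic cells in the difference between genotypes was not tested.

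**Figure D2:**
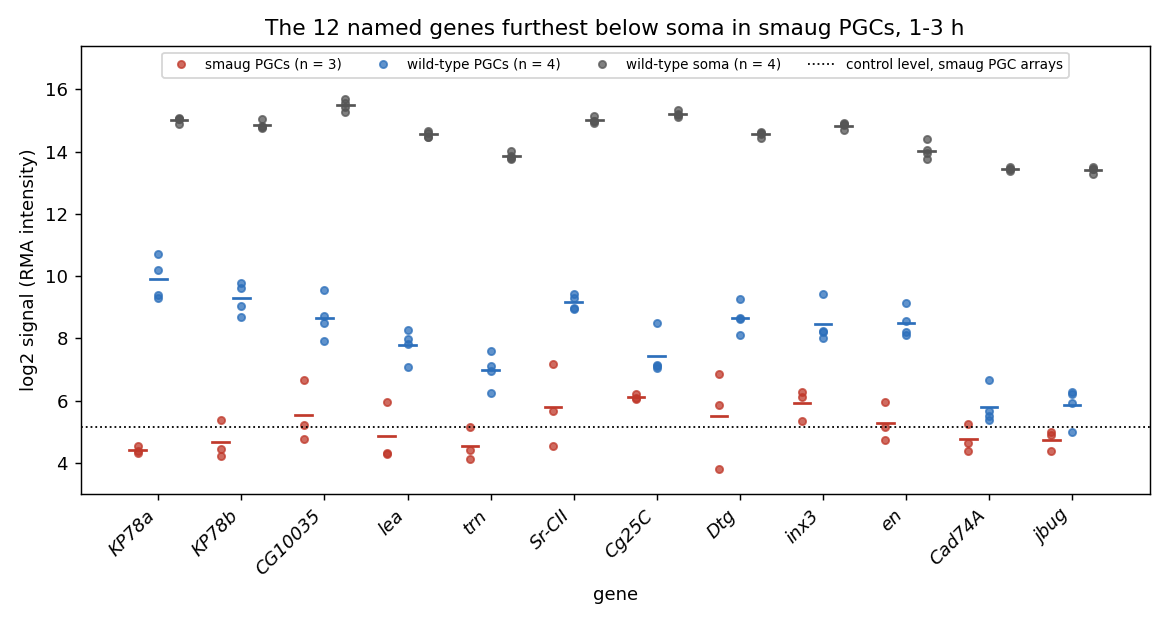
Log2 signal (y axis) of the 12 named genes furthest below soma (x axis), drawn as in the plot of the higher genes with 1 point per sample, group mean bars and a dotted control level. Soma points stand at 13 or more for every gene, wild-type PGC means lie between, and mutant PGCs scatter about the control level of 5.16.

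Patterning genes are transcribed in somatic nuclei of the blastoderm to set up the body axes. Of 11 anterior-posterior patterning genes with a named transcript, 9 were called lower and 2 higher, with a median of -6.08. A further 30 listed genes had no name and could not be counted. The naming lists hold transcripts present, enriched or changing in wild-type PGCs, or enriched in the same somatic samples. A gene low in PGCs could thus gain its name by being enriched in soma. This favours lower calls among the named members, so the share and median are a description of them. After en, the widest difference was in D, a Sox-domain gene, which read 6.78, 7.24 and 8.08 in mutant PGCs, 14.94, 15.05, 14.95 and 15.07 in soma, and 10.52 to 11.88 in wild-type PGCs. The higher members, cnc (2.74) and cad (1.28), are both supplied maternally. Mutant PGCs were called below wild-type PGCs for 7 of the 11, beside 6.0% of all transcripts called lower there, and above for none. The terminal gap gene tll read 8.33, 7.82 and 8.83 in mutant PGCs, 9.94 to 10.25 in soma and 10.55 to 10.88 in wild-type PGCs. It was called lower than soma in the mutant (-1.66) and was 0.72 above soma, not called, in the wild type.

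Dorsal-ventral patterning and gastrulation genes were called lower in 13 of 17 cases and higher in 2. A further 27 genes of this list had no name and could not be counted. Naming favours lower calls here in the same way. The transcription factor gene tup, active in dorsal ectoderm, read 4.05, 4.40 and 4.83 in mutant PGCs and 12.88, 12.80, 13.10 and 13.31 in soma, at least 233-fold apart. Ance, a peptidase gene of the dorsal ectoderm, was 192-fold lower. The higher members were dl (4.06), the maternal morphogen gene, and T48 (1.25), a gene of mesoderm invagination. The mesoderm gene sna was 2.41 lower on the log2 scale in mutant PGCs and 2.52 lower in wild-type PGCs. Its difference between genotypes was 0.11 (95% interval -0.45 to 0.67).

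Of 12 genes of cellularization and zygotic activation, 6 were called lower and 3 higher. The cellularization gene slam read 9.57, 9.23 and 9.40 against 13.45, 13.80, 13.54 and 13.27 in soma (17.3-fold lower). Against wild-type PGCs this transcript was called lower (-1.23), while a second slam transcript was not (-0.41). The activator gene zld, which opens the zygotic genome, was 4.61-fold lower in mutant PGCs, with a difference between genotypes of -0.08 (95% interval -0.50 to 0.35). Bsg25D (4.33) and the X-linked sex determination gene sisA (3.10) were higher. Among 21 basement membrane, adhesion and cytoskeleton genes, 10 were called lower and 3 higher, and the higher included Vinc (2.30), vinculin, and Tm1 (1.17), a tropomyosin. The other 4 named Tm1 transcripts, at 0.34 to 0.69, were not called.

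**Figure D3:**
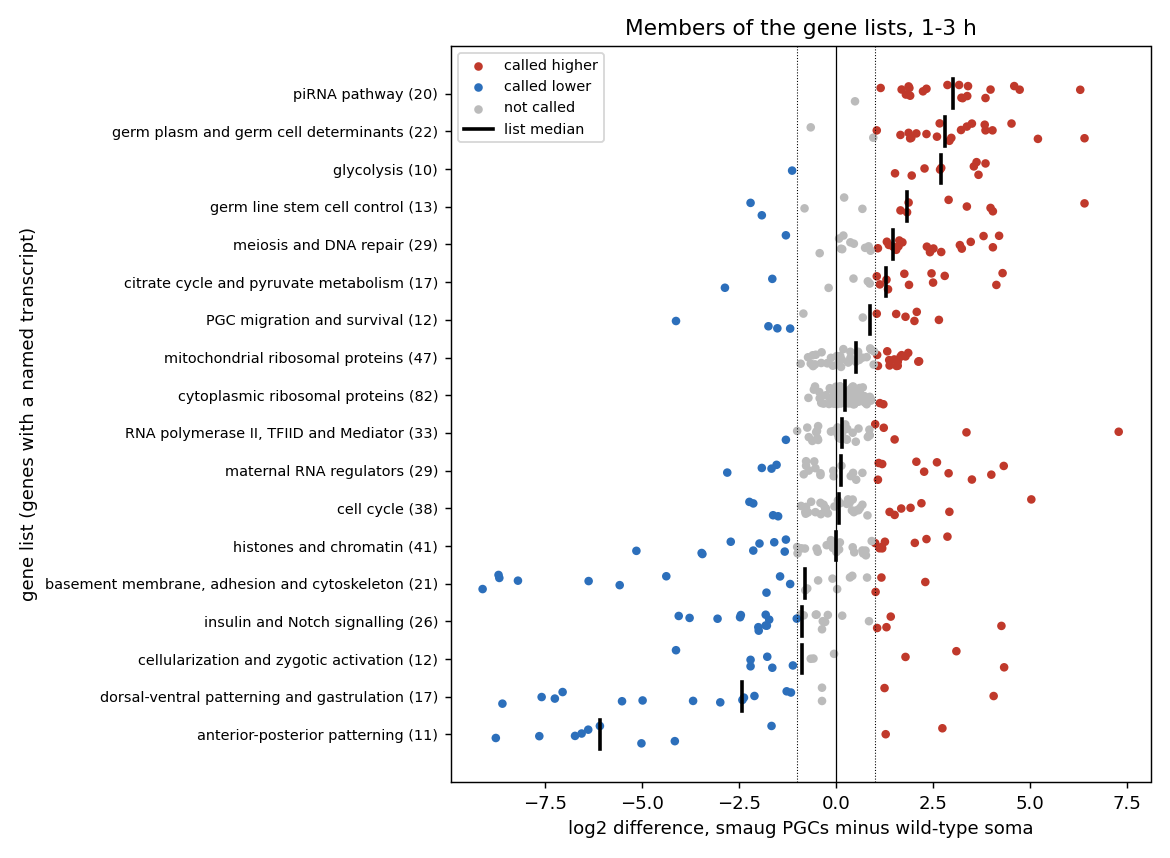
Difference of each named list member between mutant PGCs and soma (x axis, log2; n = 3 and 4 samples), with 1 point per gene, 1 line per gene list (y axis), colours for calls and black bars for list medians; dotted lines mark 2-fold. The piRNA pathway (median 3.02) and germ plasm (2.80) lie to the right, anterior-posterior patterning (-6.08) to the left, and ribosomal proteins close to 0. Only named genes are drawn, and the naming lists include transcripts enriched in wild-type PGCs or in soma.

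Other lists had members on both sides. Of 38 cell cycle genes, 7 were called higher and 4 lower. The cyclin genes CycJ (5.03) and CycB (2.92), both maternal, were highest, while the replication helicase gene Mcm7 (-2.23) and CycT (-2.13), a subunit of the transcription elongation kinase P-TEFb, were lowest. CycB read 15.77, 15.35 and 15.40 in mutant PGCs and 12.70, 12.81, 12.67 and 12.15 in soma. For PGC migration and survival 6 of 12 were called higher and 4 lower. The lipid phosphate phosphatase gene wun2 (2.65) and the JAK kinase gene hop (2.08) were among the higher, and slam (-4.12) and Ras85D (-1.74) among the lower. Of 33 genes of RNA polymerase II, TFIID and Mediator, 5 were called higher, led by Taf12L and MED26 (3.36). The 1 lower call was Trf (-1.29, and -0.97 after median centring, where it was no longer called). The TFIID subunit gene Taf4, at -1.0, lay just inside the 2-fold limit, and its second transcript, at -1.13, was called lower.

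Insulin and Notch signalling genes were called lower in 12 of 26 cases and higher in 4. The Notch ligand gene Dl read 10.01, 9.70 and 9.08 in mutant PGCs against 13.53, 13.74, 13.58 and 13.73 in soma (16.5-fold lower). Thor, the 4E-BP of the fly, was 13.6-fold lower and the insulin receptor gene InR 8.25-fold lower. The higher members included Pi3K21B (4.26), the adaptor of phosphoinositide 3-kinase, and Tsc1 (1.41), an inhibitor of TOR signalling. InR read 10.86, 9.84 and 9.89 in mutant PGCs and 12.14 to 12.67 in wild-type PGCs, and was among the 5 of 26 called lower in the mutant than in the wild type, beside 6.0% of all transcripts.

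Among 41 histone and chromatin genes, 8 were called higher and 9 lower. The Polycomb group gene ph-p read 9.28, 8.58 and 9.36 against 14.17, 14.32, 14.13 and 14.24 in soma (35.2-fold lower), and the chromatin remodeller gene brm was 11-fold lower. The higher members included escl (2.87), a Polycomb group gene, and BigH1 (2.33), the early embryonic linker histone. The copies of the repeated histone genes are nearly identical, so their single values are uncertain. Of 29 maternal RNA regulators 10 were called higher and 4 lower. These shares of 34.5% and 13.8% are close to the background of 34.3% and 14.5% of named genes. The embryonic cell cycle regulators plu (4.32) and png (4.0) were highest, and smg and brat were lowest. Both plu (2.19) and png (1.20) were also called higher in mutant than in wild-type PGCs. The deadenylase subunit genes twin (-0.06) and Pop2 (-0.56) were not called against soma.

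Most germ line to soma differences of the mutant were also called in the wild type. The wild-type comparison called 18.5% of transcripts higher and 17.5% lower in PGCs. It shares the 4 somatic samples with the mutant comparison, which favours calls in both. By the labels, cell type and dye also changed together in the wild-type comparison, and the part of the dye was not tested. Both called 2269 transcripts higher, which are 62.0% of the mutant and 73.7% of the wild-type calls. Both called 2476 lower, 74.1% and 85.1% of the respective calls. Of the 2269, the test between genotypes called 269 higher and 49 lower in mutant than in wild-type PGCs, and 1951 were not called. Of the 2476, 327 were called lower and 30 higher, and 2119 were not called. Of all transcripts, that test called 7.46% higher and 6.0% lower. The absence of a call does not show that the genotypes were equal.

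A smaller set was called in the mutant comparison alone. Of 1376 transcripts called higher than soma in mutant but not in wild-type PGCs, 599 were called higher in mutant than wild-type PGCs. The other 777 were not called between genotypes. Of the 1376, 1148 had a difference of the same sign in the wild type. Of 851 called lower in the mutant alone, 266 were called lower than in wild-type PGCs and 585 were not. Conversely, 797 transcripts were called higher in the wild type alone, of which 192 were called different between genotypes, and 415 were called lower in the wild type alone, of which 140 were called different. Of the 3341 transcripts called lower than soma in the mutant, 1092 (32.7%) were at the control level in mutant PGCs. This share is close to the 30.5% of all transcripts at that level there. Of the 1092, 692 were at the control level in wild-type PGCs too.

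**Figure D4:**
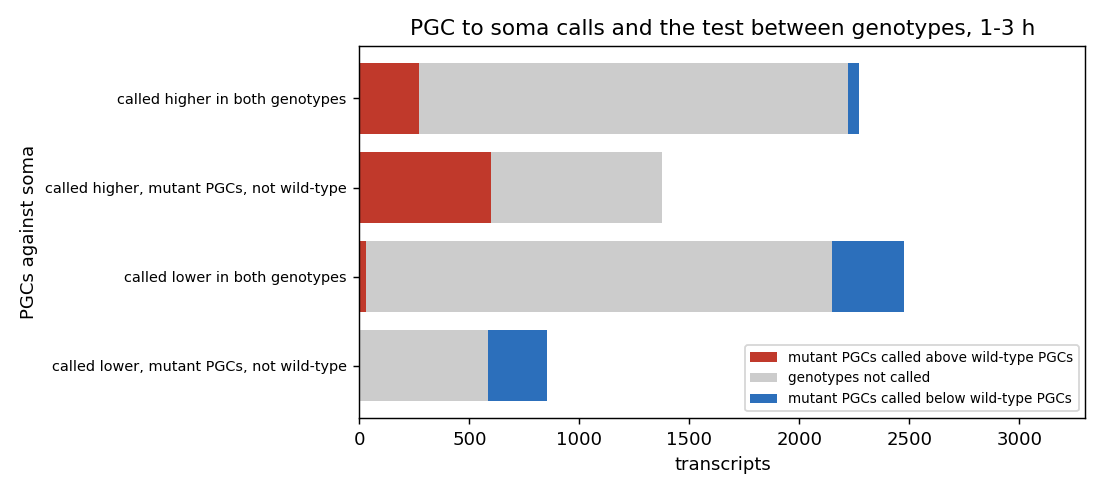
Number of transcripts (x axis) called in PGCs against soma in both genotypes or in mutant PGCs alone (y axis), with colours for the test between mutant (n = 3) and wild-type (n = 4) PGCs. The grey parts, 1951 and 2119 transcripts in the classes called in both genotypes, were not called different between genotypes.

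The genes that differed most between the genotypes, among those also called against soma, were chosen for that difference and their genotype values are a description. The lower ones in the mutant were ana, Cyp12c1, KP78a and CG4408. The secreted glial protein gene ana read 4.10, 4.64 and 5.24 in mutant PGCs, 10.52, 10.27, 10.46 and 10.60 in soma, and 11.87, 10.37, 11.11 and 10.73 in wild-type PGCs. It was at the control level in mutant PGCs alone and at least 39.5-fold below soma. The cytochrome P450 gene Cyp12c1 read 4.08, 4.27 and 4.49 in mutant PGCs, 8.31 to 8.91 in soma and 10.25 to 10.93 in wild-type PGCs. Mutant PGCs were thus at least 10.8-fold below soma, while wild-type PGCs were 2.00 above it on the log2 scale. CG4408 read 7.51, 8.29 and 7.83 in mutant PGCs, 11.95 to 12.33 in soma and 12.83 to 13.17 in wild-type PGCs.

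The higher ones in the mutant were RNASEK, CG40122, CG34039 and CG14931. RNASEK read 10.94, 10.96 and 11.36 in mutant PGCs, 8.97, 9.01, 8.47 and 6.83 in soma, and 6.14, 6.10, 7.20 and 7.92 in wild-type PGCs. CG14931 read 12.71, 12.24 and 12.53 in mutant PGCs, 7.28 to 7.47 in soma and 9.13 to 9.62 in wild-type PGCs. CG34039 was 1.96 above soma in mutant PGCs and 1.14 below it in wild-type PGCs. CG40122 was 1.12 above soma (adjusted p = 0.033), and its adjusted p was 0.052 to 0.084 when any 1 sample other than soma replicate 4 was left out, so this call rested on single samples.

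Transcripts called in opposite directions in the 2 genotypes were few. Mutant PGCs were above and wild-type PGCs below soma for 17, and the reverse held for 14. All 31 were called different between genotypes, which their choice by opposite calls against the same soma samples made nearly certain. Of the 31, 13 had a gene name. The 13 were RNASEK, CG40122 and CG34039, called higher in the mutant, and Cyp12c1, nullo, Mnt, gem, rgn, Sarm, wit, PIP5K59B, modSP and CG15332, called lower. Samples overlapped soma for Mnt and PIP5K59B in the mutant, and for CG34039, RNASEK and modSP in the wild type. The cellularization gene nullo read 8.46, 7.92 and 8.29 in mutant PGCs, 9.16, 9.23, 9.26 and 9.71 in soma, and 10.41, 10.96, 11.14 and 10.94 in wild-type PGCs. The 3 groups of nullo did not overlap.

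Neighbours of smg were examined because the mothers of the mutant embryos carried a deficiency over the smg1 allele. Of 56 genes within 200 kb of smg, 22 others than smg had a named transcript. By value, 17 of the 22 were lower in mutant than in wild-type PGCs. The median of the 22 was -0.80 on the log2 scale, beside -0.09 for named genes and -0.01 for all transcripts. The test called 10 lower and 2 higher, beside 6.0% and 7.46% of all transcripts. The lower calls included Doc1, Doc2 and Doc3, T-box genes of the dorsal ectoderm. Doc2 read 5.19, 5.21 and 4.57 in mutant PGCs, 12.02, 11.96, 12.22 and 11.90 in soma and 7.81 to 7.97 in wild-type PGCs, at the control level in the mutant and at least 5.85-fold below the wild type. Against wild-type PGCs, Doc1 was 3.16 and Doc3 1.57 lower. The other lower calls were Mcm7 (-1.30), orb2 (-1.31), mRpL12 (-1.26), ValRS-m (-1.39), CG5026 (-1.20), pix (-1.29) and bol (-1.34). A call needs a difference over 2-fold, which bounds these values. Neighbours not called ranged from -0.83 for Galk to 0.91 for Argk. CG5194 (1.76) and Use1 (1.60) were higher. Against soma, 8 of the 22 were called higher and 6 lower in the mutant, and 11 higher and 5 lower in the wild type. The ends of the deficiency are not given in the sources used here, and its part in these differences was not tested.

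**Figure D5:**
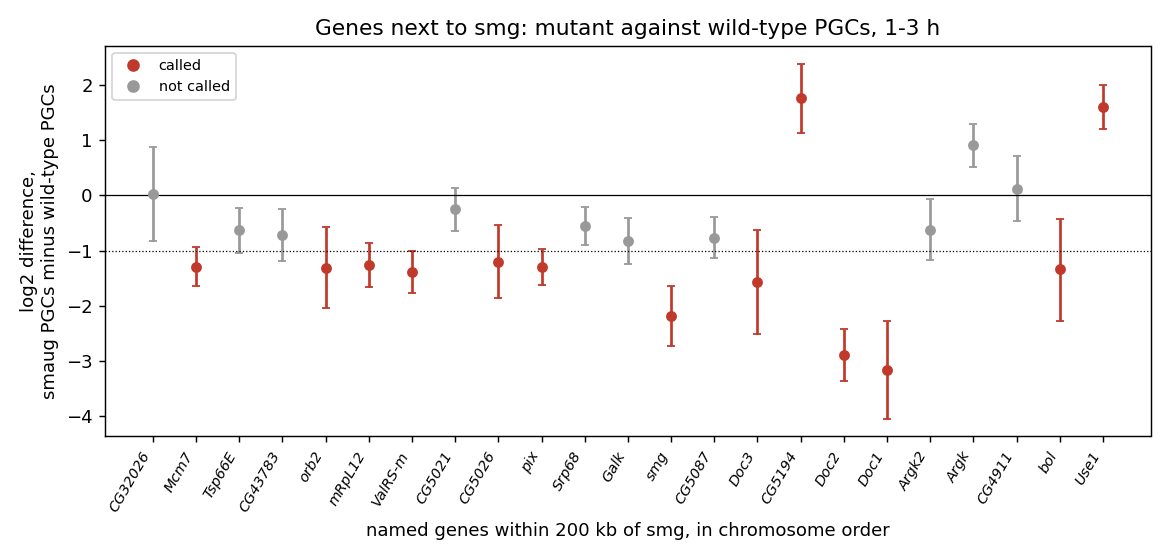
Log2 difference between mutant (n = 3) and wild-type (n = 4) PGCs (y axis, points with 95% intervals) for smg and the 22 named genes within 200 kb of it, in chromosome order (x axis). Of the 22 neighbours, 17 lie below 0, and CG5194 and Use1 stand above it at 1.76 and 1.60.

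The later PGC samples extend these levels in time, with no somatic samples to set them against. At 3-5h the mean of nos was 14.7 in mutant and 13.88 in wild-type PGCs, and that of osk 13.62 and 10.75. At 5-7h mutant PGCs held nos at 14.77 and osk at 13.37. Taf12L stood at 14.45 in mutant and 10.86 in wild-type PGCs at 3-5h, where the samples did not overlap (14.32 to 14.54 against 10.72 to 11.01). Among the lower genes, KP78a was at 6.11 in mutant and 11.07 in wild-type PGCs at 3-5h, and en at 7.17 and 10.44. The control levels of the mutant arrays at 3-5h were 6.31, 6.01 and 6.57, so KP78a was about at that level there. The mutant means of KP78a and en at 5-7h were 8.68 and 8.45, still below the 1-3h soma. Cyp12c1 stayed low in the mutant, at 4.86 and 4.49 at the later ages. Both means lay below the control levels of those arrays, the lowest of which were 6.01 at 3-5h and 4.68 at 5-7h.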

How the data were processed

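RNA of sorted cells was amplified, labelled and hybridized to custom NimbleGen arrays. The authors scanned the arrays and normalized them by RMA with quantile normalization, and the deposited values are linear intensities, 1 per transcript and dye channel. Which samples shared an array is not given in the sources used here, nor is the genome build. The labels call the replicates biological, whereas the methods also allow technical ones, so p-values measure the spread between these samples. No columns were identical.

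Here the intensities were put on a log2 scale and 16623 transcripts were fitted with limma 3.58.1 in R 4.3.3 (lmFit and eBayes), with only the groups compared in each fit and Benjamini-Hochberg adjustment over all transcripts. Left out of the tests were 371 CG, 116 CR and 20 control or transgene features. The fits were tested on simulated data. The deposited table carries transcript identifiers without gene names. A transcript was named where the means or ratios printed in the study's lists of transcripts from wild-type samples matched 1 deposited transcript, and only names were taken from them. One of those lists is held only in part, and genes without a name could not be counted.

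Each gene stood by its named transcript with the highest mean signal. The genes named were the 12 furthest from soma in each direction, taken among called genes whose replicates did not overlap between the groups. Also named were the 2 furthest in each direction of each of 18 gene lists, smg, and the 4 with the largest genotype difference in each direction. Other genes named, among them those next to smg and those of opposite sign, were chosen after their values were seen, as was the control level. The members and lists were chosen with earlier results of these data known. An at-least fold sets the brighter group against the higher of the control level and the gene's own signal on each array of the dimmer group. The alternatives were filters on present and dim transcripts, median centring, renewed quantile normalization, larger fits, a replicate block, array weights, a test against 2-fold, an offset, another variance model, the SAM test of the methods and leaving out each sample. Replicate numbers did not pair the samples. Promoter sequences were not analysed here.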

Additional observations from a re-analysis of the deposited data

Results flagged for a closer look

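Of 180 groups of 4 samples tested, 12 had 1 sample far from the others, where chance gives about 1 in 20. In soma the low samples were replicate 4 for CG12112 (8.73), CG34039 (9.49) and brat (14.78), replicate 3 for Ercc1 (6.51) and Hsp22 (4.11), replicate 1 for wun2 (9.49) and replicate 2 for the second smg transcript (8.94), and cad was high in replicate 4 (10.94). In wild-type PGCs, Cg25C was high in replicate 3 (8.48), inx3 in replicate 2 (9.44) and cad in replicate 4 (12.08), and the second smg transcript was low in replicate 2 (12.93).

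For 42 genes among those named by rule, the PGC to soma difference differed between the genotypes in the test of mutant against wild-type PGCs, in which the somatic samples cancel. The values are mutant minus wild type on the log2 scale. Of these 42 calls, 16 were lost under some alternative other than the test against 2-fold. Patterning and surface genes were lower in the mutant, with tup at -3.91, D at -3.96, en at -3.23, Dtg at -3.16, Dl at -1.18, lea at -2.92, trn at -2.42, inx3 at -2.56, Sr-CII at -3.37, Cg25C at -1.34 and slam at -1.23. Other genes lower in the mutant were ana at -6.36, Cyp12c1 at -6.31, KP78a at -5.49, CG4408 at -5.18, KP78b at -4.61, CG10035 at -3.13, smg at -2.18, ph-p at -1.75, Thor at -1.36, Acon at -1.34, Mcm7 at -1.30, brm at -1.18, kdn at -1.05 and Ald at -1.02. Mutant PGCs were at the control level for 7 of these genes, whose differences are fitted values with no secure order. Against the control level the difference was at least 58.0-fold for ana, 43.1-fold for Cyp12c1, 26.8-fold for KP78a, 14.8-fold for KP78b, 9.07-fold for tup, 5.23-fold for lea and 3.5-fold for trn. Genes chosen for extreme values in the mutant samples are favoured to differ from the wild type in the same direction.

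Germ line and maternal genes were among those higher in the mutant, with Taf12L at 2.77, plu at 2.19, osk at 1.92, png at 1.20 and wun2 at 1.03. The others higher in the mutant were RNASEK at 4.25, CG40122 at 3.50, CG34039 at 3.11, CG14931 at 3.09, CG32243 at 1.94, Hsp22 at 1.60, CG12112 at 1.55, CG31262 at 1.47, RpL39 at 1.44, RpLP2 at 1.41, Idh at 1.14 and Vps11 at 1.11.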

How the results depend on the processing

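Of the 82 named genes called against soma, 9 lost the call under some alternative, 5 of them under an alternative other than the test against 2-fold. Of the 42 called between genotypes, 27 lost the call under some alternative. The test against 2-fold lost 26 of these calls and the other alternatives lost 16, with genes shared between them. The replicate block lost 12 and leaving out 1 sample lost 5. None changed sign in either comparison. Against soma, leaving out each sample in turn gave 3585 to 3727 higher and 3286 to 3415 lower calls in the mutant, and 2975 to 3205 and 2831 to 2967 in the wild type. Calls in both genotypes ranged from 2208 to 2286 and from 2414 to 2483, and those between genotypes from 1051 to 1344 higher and from 713 to 1105 lower.

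The test against 2-fold gave 2122 higher and 2212 lower calls in the mutant, 1563 and 1782 in the wild type, 1186 and 1571 in both, and 153 and 82 between genotypes. Transcripts present in the higher group alone gave lower counts of 2101 (mutant), 1819 (wild type), 1600 (both) and 659 (between genotypes), since this filter removed calls after the same test.

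Replicate numbers did not pair the samples. Correlations of same-numbered deviations were -0.01 to 0.03 for mutant PGCs with soma, where 0 of 3 correlated best with their own number, -0.09 to 0.03 for mutant with wild-type PGCs, again with 0 of 3, and -0.07 to 0.14 for wild-type PGCs with soma, with 2 of 4. With the replicate block, calls between genotypes were 711 higher and 460 lower, and no other count of calls moved by over 1.5 times.

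Some list shares moved, with the cause not tested. After median centring the higher share was 13.4% for cytoplasmic ribosomal proteins, 27.3% for RNA polymerase II, TFIID and Mediator and 31.7% for histones and chromatin, and the lower share was 0.0% for meiosis, glycolysis and the TFIID list. Counting every named transcript gave 25.0% lower for stem cell control, 4.42% higher and 3.54% lower for cytoplasmic ribosomal proteins and 5.26% lower for the TFIID list. Renewed quantile normalization gave 2.13% lower for mitochondrial ribosomal proteins, 9.52% higher for basement membrane genes and 6.06% lower for the TFIID list. The list settings by centring and quantile normalization were chosen after seeing the data. Signals at the control level, 30.5% of transcripts in mutant PGCs, carry no order among themselves.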

Other observations

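Between mutant and wild-type PGCs, mitochondrial ribosomal protein genes were called higher in the mutant for 12 of 47 and lower for 2, mRpL12 (-1.26) and mRpS24 (-1.20), beside 7.46% and 6.0% of all transcripts. The widest were mRpL41 (1.86 on the log2 scale) and mRpL23 (1.82). In the transcription machinery, the polymerase subunit gene RpII18 (1.99) and the Mediator genes MED20 (1.40) and MED10 (1.21) were called higher in the mutant with Taf12L, and Trf2 (-1.59) and MED1 (-1.30) lower.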
